A study of Homo sapiens with 4 samples.

Results

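The mRNAs of 10 splicing regulators were followed in 293T cells given a miRNA mimic: the 3 polypyrimidine tract binding protein genes PTBP1, PTBP2 and PTBP3, and RBFOX2, SRRM4, NOVA1, CELF1, MBNL1, MBNL2 and QKI. They were chosen by name, for what is known of PTBP1 and miR-124 and of splicing in neurons, and their symbols were matched to 10 of the 58243 Ensembl gene identifiers with a value. 293T cells descend from human embryonic kidney and carry the SV40 large T antigen. Cells received a control RNA or a mimic, which is a synthetic RNA that acts as the mature miRNA, of miR-1, miR-122 or miR-124. PolyA-selected RNA-seq was run on 1 library for each of the 4 conditions, and all 4 carry the same label for cell line and for time, 48 h after transfection, whereas the methods of the study give an earlier time. The libraries held 5887055 to 9452232 reads. With 1 library per condition no difference between conditions can be tested. Every interval below is a 95% interval that covers the counting error of reads in those libraries only. Most are exact (Clopper-Pearson), and the section on processing names the others.

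PTBP1 binds pyrimidine-rich stretches of pre-mRNA and in most dividing cells keeps many neuronal exons out of the mRNA, among them an exon of its paralogue PTBP2 whose loss sends the PTBP2 mRNA to decay. As a neuronal precursor differentiates, miR-124 is made, PTBP1 declines and PTBP2, the neuronal form, takes its place until mature neurons lose it too. miR-1 is known from heart and skeletal muscle and miR-122 from liver. A miRNA pairs through its seed, bases 2 to 8 from its 5′ end, with matches in the 3′ UTR of an mRNA, and in animal cells this mostly lowers the mRNA or its translation.

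The seed sequences set which mRNAs could pair with which mimic, and no seed is shared among the 3. The mature sequences are from RefSeq (GRCh38.p14), with the seed in capitals. miR-1 lies at chr20:62554351-62554372 and miR-122 at chr18:58451088-58451109, both on the plus strand.
hsa-miR-1-3p: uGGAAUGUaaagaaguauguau
hsa-miR-122-5p: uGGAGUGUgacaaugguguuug
The DNA words searched on the mRNA strand were ACATTCC for miR-1, ACACTCC for miR-122 and GTGCCTT for miR-124. A match to all 7 letters followed by A is called an 8mer. A 7mer-m8 site has the 7 letters without that A, and a 7mer-A1 site has the last 6 letters followed by A.

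The sites in the PTBP genes are where a mimic could pair with these mRNAs through its seed, so all of them are shown. Each is given as 25 bases of the longest annotated 3′ UTR (GRCh38, GENCODE 44) that end with the match, which is in capitals. PTBP1 lies at chr19:797075-812327 on the plus strand and its 3′ UTR holds 1 8mer and 2 7mer-A1 sites for miR-124, 2 sites for miR-1 and none for miR-122.
PTBP1, miR-124 8mer, chr19:811138-811162: cacgacttggcttccttGTGCCTTA
PTBP1, miR-124 7mer-A1, chr19:811759-811783: tctggcatcgcctccggtTGCCTTA
PTBP1, miR-124 7mer-A1, chr19:812146-812170: accccacgcacattccgtTGCCTTA
PTBP1, miR-1 7mer-A1, chr19:810853-810877: cctggcgacaacttccatCATTCCA
PTBP1, miR-1 7mer-m8, chr19:812137-812161: ccacaggggaccccacgcACATTCC
The last miR-1 match and the last miR-124 match start 9 bases apart, so that the window of one holds the match of the other.

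PTBP2 lies at chr1:96721665-96823738 on the plus strand, and its 3′ UTR of 10333 bases is the longest among the 10 genes. It holds 3 sites for miR-124 and 1 for each of the other mimics.
PTBP2, miR-124 8mer, chr1:96813688-96813712: caacttagttgacatacGTGCCTTA
PTBP2, miR-124 7mer-m8, chr1:96814434-96814458: ggtgggaccaaagtttatGTGCCTT
PTBP2, miR-124 7mer-A1, chr1:96817241-96817265: caaacaggattttctggcTGCCTTA
PTBP2, miR-1 7mer-A1, chr1:96820153-96820177: ttatgtgaaatactgttcCATTCCA
PTBP2, miR-122 7mer-A1, chr1:96814919-96814943: tctcctcttctttgttttCACTCCA
PTBP3 lies at chr9:112217716-112333664 on the minus strand, with 2 sites for miR-124, 1 for miR-1 and 2 for miR-122.
PTBP3, miR-124 8mer, chr9:112222793-112222817: acttaatttcttattatGTGCCTTA
PTBP3, miR-124 7mer-m8, chr9:112219779-112219803: aacaggaccaaagtttatGTGCCTT
PTBP3, miR-1 7mer-m8, chr9:112217929-112217953: cagatactagctgatgctACATTCC
PTBP3, miR-122 7mer-m8, chr9:112223232-112223256: tctttttttcactgtaagACACTCC
PTBP3, miR-122 7mer-A1, chr9:112221950-112221974: atttgtgaatagccacttCACTCCA
The 7mer-m8 sites of PTBP2 and PTBP3 share 21 of 25 bases, counted without a break from the 3′ end, whereas the other pairs of like sites between paralogues share 7 to 9 bases, which is the match itself and at most 2 bases more.

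Of the other 7 genes, QKI held 1 8mer and 2 7mer-m8 sites for miR-124, and no other gene outside the PTBP family held one. An 8mer for miR-124 was thus found in 4 of the 10 genes. CELF1 held 1 site and MBNL1 held 2 for miR-122, SRRM4 held 2 for miR-1 and 2 for miR-122, NOVA1 held 1 for miR-1, and RBFOX2 and MBNL2 held none for any of the 3. Among the 3′ UTRs of 11232 genes with at least 200 reads, 30.0% held a miR-124 site of at least 7 bases, 27.2% a miR-1 site and 28.7% a miR-122 site, and 4.13%, 6.48% and 4.07% held an 8mer. Longer 3′ UTRs hold more matches by length alone. Per kb, PTBP1 held 1.39 miR-124 sites and 0.928 miR-1 sites, against 0.162 and 0.142 over all 3′ UTRs. A match is a description of the letters and not evidence that the site was used.

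**Figure D1:**
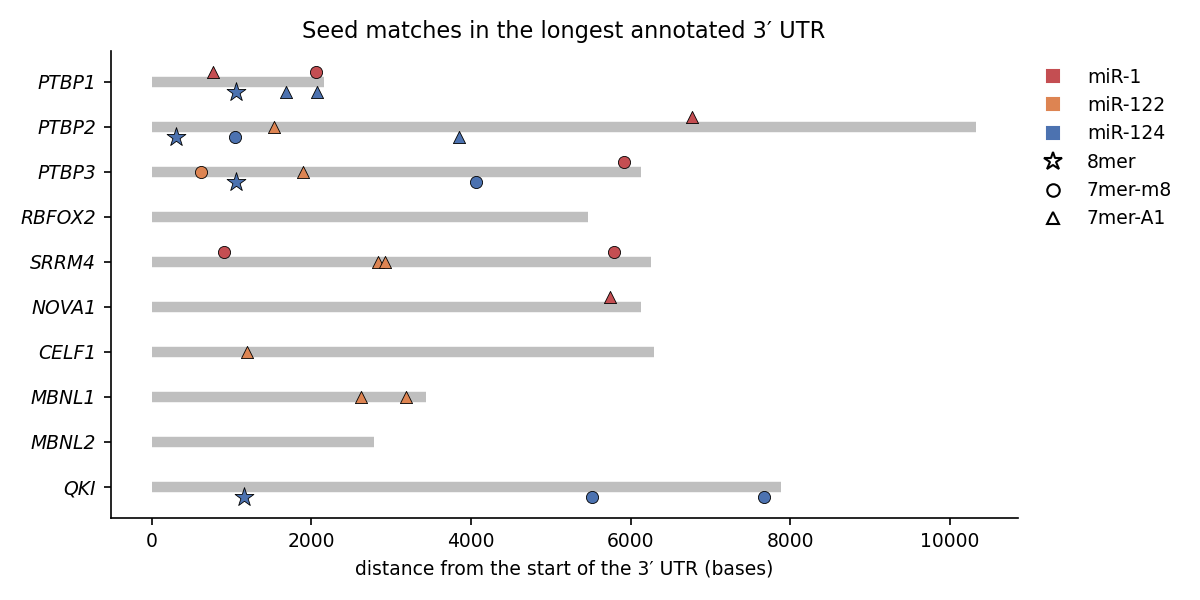
Seed matches in the 3′ UTRs of the 10 genes. The x axis is the distance in bases from the start of the 3′ UTR, each grey bar is the longest annotated 3′ UTR of a gene, and symbols mark 8mer, 7mer-m8 and 7mer-A1 matches, coloured by miRNA. The 3 PTBP genes and QKI each hold an 8mer for miR-124, and RBFOX2 and MBNL2 hold none of these matches.

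The question for PTBP1 was whether its mRNA was lower with miR-124 than with the control RNA. In the values as deposited it was not. With a trend in 3′ UTR composition and length, span and depth subtracted together (the joint trend), its ratio was 0.896. The same adjustment gave 0.922 with miR-122 and 0.608 with miR-1. The PTBP1 mRNA (ENSG00000011304) was at 38.1 FPKM with the control RNA, 25.8 with miR-1, 38.2 with miR-122 and 40.2 in the miR-124 library, where FPKM is reads per kb of gene, scaled to the depth of the library. The control library and those of miR-122 and miR-124 lay close together, and that of miR-1 was the low one. These values rest on 3850, 3720, 3426 and 3962 reads. The ratio to control was 1.05 (1.01–1.10) with miR-124, 1.00 (0.956–1.05) with miR-122 and 0.677 (0.647–0.709) with miR-1. With miR-124, 66.6% of the 12747 genes with at least 200 reads over the 4 libraries had a lower ratio than PTBP1, and with miR-1, 5.62% did. Against the mean of the other 2 mimics, which leaves the control library out, PTBP1 was at 1.26 with miR-124 and at 0.659 with miR-1. In a bulk lysate, fewer cells with an mRNA and less of it per cell cannot be told apart, and cells that took up no mimic are part of each value.

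PTBP2 (ENSG00000117569) was a low mRNA in 293T cells. It was at 0.280 FPKM with the control RNA, 0.365 with miR-1, 0.251 with miR-122 and 0.241 in the miR-124 library, on 189, 352, 151 and 159 reads. The miR-1 library was the high one and the other 3 lay together. The ratio to control was 1.31 (1.09–1.57) with miR-1, 0.899 (0.721–1.12) with miR-122 and 0.862 (0.694–1.07) in the miR-124 library. Ranked on miR-1, 95.2% of genes had a lower ratio than PTBP2. The interval for miR-124 reaches from 0.694 to 1.07, so neither a moderate loss nor equality is outside the counting error.

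PTBP3 (ENSG00000119314), the paralogue best known from blood cells, was at 0.818 FPKM with the control RNA, 0.875 with miR-1, 0.681 with miR-122 and 0.716 in the miR-124 library. The miR-122 and miR-124 libraries were both below the control and the miR-1 library was above it. The ratio to control was 0.876 (0.779–0.985) with miR-124, 0.833 (0.737–0.941) with miR-122 and 1.07 (0.967–1.19) with miR-1. The 3 ratios share the control library, and against the mean of the other mimics PTBP3 was at 0.921 with miR-124.

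FPKM here is per length of the whole gene, introns included. Levels of different genes were therefore set side by side as exon RPKM, the reads per kb of exon scaled in the same way. All reads of a gene were divided by the merged exons of its annotated transcripts, 7521 bases for PTBP1 and 20122 for PTBP2. Any intron reads that were counted are part of these levels. On that scale PTBP1 was at 77.3 (74.9–79.8), PTBP3 at 11.5 (10.6–12.4) and PTBP2 at 1.42 (1.22–1.64) in the control library. The order PTBP1, PTBP3, PTBP2 was the same in the other 3 libraries. With miR-1 the levels were 52.3, 12.3 and 1.85, and with miR-124 they were 81.5, 10.1 and 1.22.

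**Figure D2:**
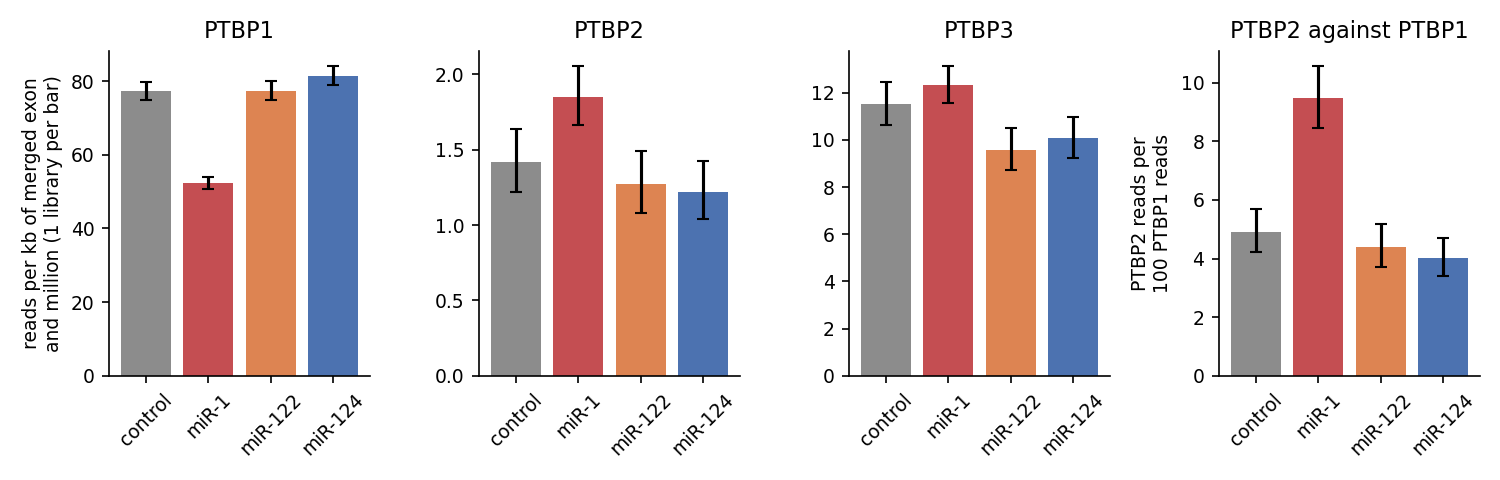
Levels of PTBP1, PTBP2 and PTBP3 in the 4 libraries, as exon RPKM (reads per kb of exon, scaled to depth), and, in the last panel, PTBP2 reads per 100 PTBP1 reads. Each bar is 1 library and whiskers are exact 95% counting intervals. PTBP1 is lowest and PTBP2 highest in the miR-1 library, and the miR-124 library lies near the control for PTBP1.

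The exchange of PTBP1 for PTBP2 was read as PTBP2 reads per 100 PTBP1 reads within a library, a ratio that does not depend on the depth. It was 4.91 (4.22–5.68) with the control RNA, 9.46 (8.46–10.6) with miR-1, 4.41 (3.72–5.19) with miR-122 and 4.01 (3.40–4.70) in the miR-124 library. The miR-1 library stood above the other 3, whose intervals overlap. Relative to the control library the ratio was 1.93 (1.61–2.31) with miR-1, 0.898 (0.721–1.12) with miR-122 and 0.817 (0.659–1.01) in the miR-124 library. These 3 intervals are normal approximations on the log scale. The direction of the neuronal exchange, less PTBP1 and more PTBP2, was seen in the miR-1 library. With miR-124 it was not seen in the values as deposited. With the joint trend subtracted the ratio for miR-124 was 1.19, with PTBP1 at 0.896 and PTBP2 at 1.06. The side of 1 on which it falls thus depends on that adjustment. After the same adjustment PTBP1 was at 0.922 and PTBP2 at 1.04 with miR-122, so a shift in that direction was not particular to miR-124.

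Among the neuronal regulators, SRRM4, which promotes the inclusion of microexons in neurons, had 2 reads with the control RNA, 4 with miR-1, 3 with miR-122 and 0 in the miR-124 library. NOVA1, a neuronal regulator that binds YCAY clusters, had 1, 1, 0 and 3 reads. Both lay below 0.004 FPKM, the level set for detection, in all 4 libraries, so no ratio is given. A count of 0 allows up to 3 reads in a library, which is a one-sided limit, unlike the 2-sided intervals used elsewhere. Measured against the label of a neuronal splicing switch, both neuron-restricted regulators were at or near 0 in these cells.

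RBFOX2 (ENSG00000100320), the RBFOX protein of many non-neuronal cells, which binds GCAUG, was at 0.445 FPKM with the control RNA, 0.350 with miR-1, 0.389 with miR-122 and 0.399 in the miR-124 library. The control library was the highest of the 4. Its ratio was 0.786 (0.716–0.863) with miR-1, 0.874 (0.788–0.968) with miR-122 and 0.897 (0.812–0.991) in the miR-124 library. Against the mean of the other mimics RBFOX2 was at 1.08 with miR-124, so the direction turned, and with the joint trend subtracted it was at 0.992. No seed match of at least 7 bases was found in its 3′ UTR.

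CELF1 (ENSG00000149187), which binds GU-rich elements and acts against MBNL proteins on many muscle exons, was at 1.60, 1.60, 1.42 and 1.40 FPKM, in the order control RNA, miR-1, miR-122, miR-124. The control and miR-1 libraries were alike and the other 2 were lower. The ratio was 0.999 (0.923–1.08) with miR-1, 0.888 (0.810–0.973) with miR-122 and 0.875 (0.800–0.958) in the miR-124 library. PTPMT1 and NDUFS3 overlap CELF1 on the opposite strand by 140 and 234 bases. The sources used here do not say whether strand was used in counting, and reads in those overlaps cannot then be told apart.

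MBNL1 (ENSG00000152601), a muscleblind protein that promotes adult splice forms in muscle and brain, was at 0.329 FPKM with the control RNA, 0.305 with miR-1, 0.226 with miR-122 and 0.302 in the miR-124 library. The miR-122 library was the low one. The ratio was 0.687 (0.593–0.796) with miR-122, 0.927 (0.823–1.05) with miR-1 and 0.919 (0.805–1.05) with miR-124, and against the mean of the other mimics MBNL1 was at 0.745 with miR-122. For miR-124 it was at 1.14 against the other mimics and at 1.11 after the adjustment, both above 1. With miR-122, MBNL2, which holds no match for it, was lower still at 0.570, and PTBP3, with 2 matches, was at 0.833. Whether any match was used was not tested. The 3′ UTR of MBNL1 holds 2 7mer-A1 matches for miR-122, shown because it was the member with such matches that was lowest with that mimic.
MBNL1, miR-122 7mer-A1, chr3:152464943-152464967: aaagtggcacagagttagCACTCCA
MBNL1, miR-122 7mer-A1, chr3:152465513-152465537: attagtgtatccagccttCACTCCA
The long noncoding RNA gene MBNL1-AS1 lies over part of MBNL1 on the opposite strand and had 87 reads with the control RNA, 104 with miR-1, 57 with miR-122 and 65 in the miR-124 library. How many of these were counted for both genes was not tested.

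MBNL2 (ENSG00000139793), the muscleblind protein most abundant in brain, was the member with the fewest reads above the detection level. It was at 0.126 FPKM with the control RNA, 0.0827 with miR-1, 0.0718 with miR-122 and 0.0851 in the miR-124 library, on 144, 135, 73 and 95 reads. The control library was the high one and the 3 mimic libraries lay below it. The ratio was lowest with miR-122, at 0.570 (0.424–0.761), and was 0.657 (0.516–0.837) with miR-1 and 0.676 (0.516–0.882) with miR-124. All 3 ratios divide by the same control library, and against the mean of the other mimics MBNL2 was at 1.05 (miR-1), 1.10 (miR-124) and 0.856 (miR-122), so the direction turned for miR-1 and miR-124. Its 3′ UTR holds no match of at least 7 bases for any of the 3.

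QKI (ENSG00000112531), which binds ACUAAY elements and is best known from glia, holds the miR-124 8mer shown here for comparison with the PTBP sites.
QKI, miR-124 8mer, chr6:163571846-163571870: agtctaaagaaaagaaaGTGCCTTA
It was at 0.681 FPKM with the control RNA, 0.604 with miR-1, 0.680 with miR-122 and 0.584 in the miR-124 library. The libraries of the control RNA and miR-122 were alike and the other 2 were lower. The ratio was 0.859 (0.771–0.957) with miR-124, 0.887 (0.805–0.978) with miR-1 and 0.999 (0.898–1.11) with miR-122. For miR-124, QKI was at 0.911 against the mean of the other mimics. With the joint trend subtracted it was at 1.04, on the other side of 1.

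In the control library, the exon RPKM ran from PTBP1 at 77.3 through CELF1 at 15.1, PTBP3 at 11.5, RBFOX2 at 10.4, MBNL1 at 7.30, QKI at 6.45 and MBNL2 at 4.18 to PTBP2 at 1.42. The intervals of PTBP3 and RBFOX2 overlap, and so do those of MBNL1 and QKI, so their order is not larger than the counting error. The other neighbours in this order do not overlap. Counting error leaves out the spread between cultures, which these libraries cannot give. It also leaves out the choice of exon length and any counted intron reads.

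Of the 10 genes, 8 had at least 200 reads over the 4 libraries. With miR-124, 1 of the 8 was lower than control by more than 1.3-fold (MBNL2) and 0 were higher, while 12.0% of all genes with at least 200 reads were lower and 7.44% higher by that much. With miR-1, 2 were lower (PTBP1 and MBNL2), against 14.4% of all genes, and 1 was higher (PTBP2), against 5.01%. With miR-122, 2 were lower (MBNL1 and MBNL2), against 9.17%, and 0 were higher, against 5.44%. With 8 genes the counts are too small to be read as a result about the group. Past 1.5-fold, 0 of the 8 were lower with miR-124, against 3.26% of all genes, and MBNL2 was the 1 lower gene both with miR-1, against 5.04%, and with miR-122, against 2.51%. Higher past 1.5-fold were 0 of the 8 with any mimic, against 1.95% of all genes for miR-124, 1.06% for miR-1 and 1.47% for miR-122.

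The counting interval of the ratio narrows with depth. For miR-124 it lay wholly below 1 in 5 of the 8 (PTBP3, RBFOX2, CELF1, MBNL2 and QKI), against 22.1% of all genes, and wholly above 1 in PTBP1, against 16.6%. For miR-122 it lay below 1 in 5 (PTBP3, RBFOX2, CELF1, MBNL1 and MBNL2), against 16.6%, and above 1 in 0, against 13.4%. For miR-1 it lay below 1 in 4 (PTBP1, RBFOX2, MBNL2 and QKI), against 24.8%, and above 1 in PTBP2, against 15.7%. The median log2 ratio of the 8 was -0.19 for miR-124, -0.18 for miR-122 and -0.14 for miR-1, where all genes with at least 200 reads had medians of -0.05, -0.02 and -0.05. For miR-124 it was 0.0024 against the mean of the other mimics and 0.024 with the joint trend subtracted.

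**Figure D3:**
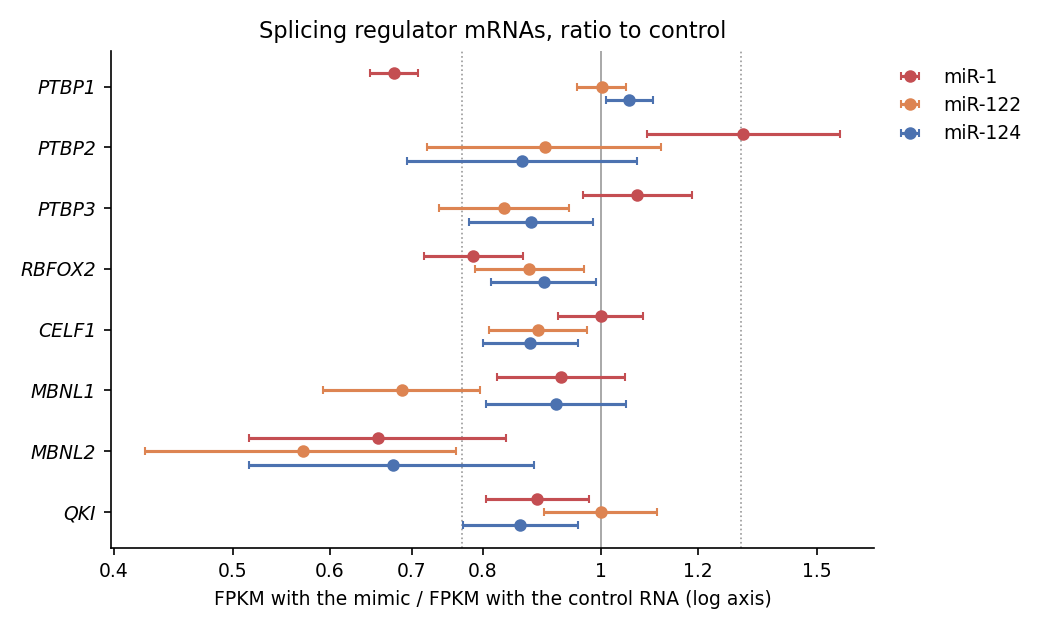
Ratio of FPKM with each mimic to FPKM with the control RNA, on a log axis, for the 8 genes with at least 200 reads. Points are single libraries over the single control library, bars are exact 95% counting intervals, and dotted lines mark 1.3-fold. PTBP1 lies at 0.677 with miR-1 and at 1.05 with miR-124, and all 3 ratios of MBNL2 lie to the left of 1.

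The log2 ratio moved with the base composition of the mRNA across the genome. Across 11230 genes with at least 200 reads, Pearson's r between the miR-124 log2 ratio and 3′ UTR GC content was 0.611, and for the logarithm of 3′ UTR length it was -0.358. For miR-1 the r with GC content was 0.245 and for miR-122 it was 0.343. These are correlations across genes of the same 2 libraries, and genes are not independent replicates. The 10 genes sit far apart on this axis. The 3′ UTR of PTBP1 is 56.8% GC, higher than that of 83.9% of genes, whereas those of PTBP2, PTBP3, MBNL1, MBNL2 and QKI are 33.5%, 33.7%, 31.6%, 30.2% and 34.5% GC.

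A smooth trend in 4 properties of a gene (base composition of its 3′ UTR, length of that UTR, span and depth), fitted to all genes with at least 200 reads, was subtracted to give an adjusted ratio. With miR-124 the adjusted ratio of PTBP1 was 0.896, on the other side of 1 from the unadjusted 1.05, those of PTBP2 and PTBP3 were both 1.06, above 1 where the unadjusted ratios were below it, and that of QKI was 1.04. The adjusted ratio of MBNL2 with miR-124 was 0.820 and no gene of the 8 was then past 1.3-fold. With miR-1 the adjusted ratio was 0.608 for PTBP1 and 1.55 for PTBP2, both farther from 1 than before. With miR-122 the adjusted ratio was 0.922 for PTBP1, 1.04 for PTBP2 and 0.778 for MBNL1. The 4 properties were subtracted together, and the part of any single property in these ratios was not tested. For PTBP1, PTBP3 and QKI the direction with miR-124 rests on whether this joint trend is subtracted. For PTBP2 the adjusted ratio stays inside the unadjusted counting interval (0.694–1.07), which includes equality, so it had no clear direction to begin with.

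**Figure D4:**
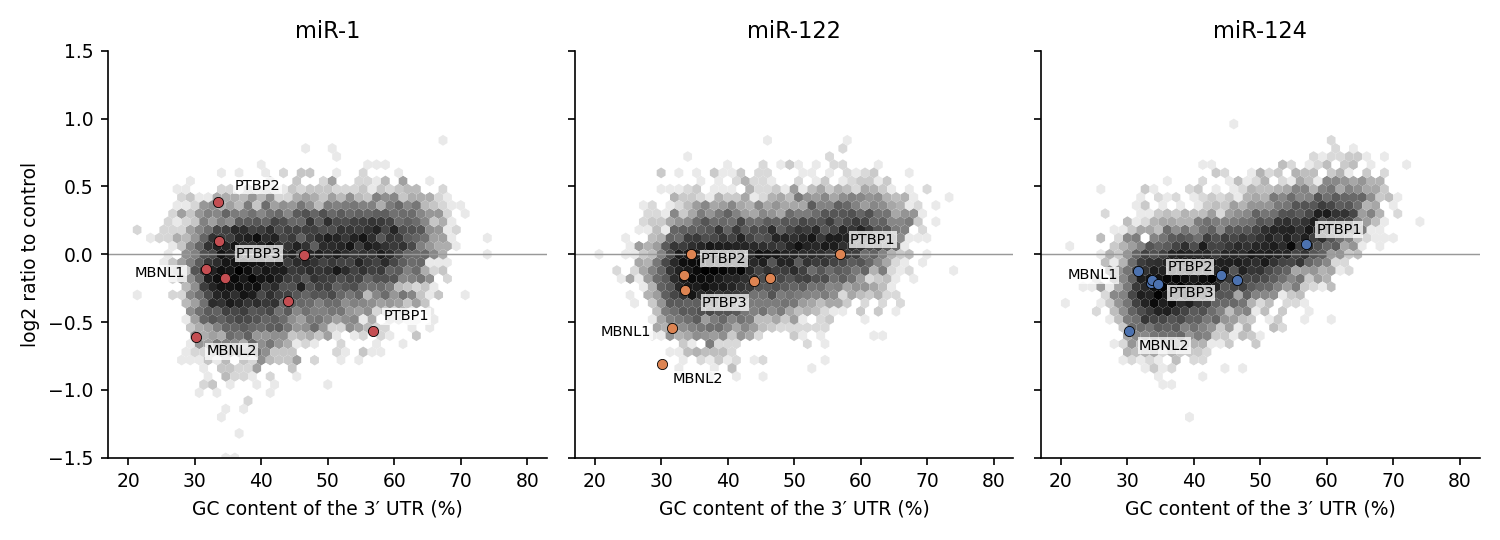
The log2 ratio to control against the GC content (%) of the 3′ UTR for each mimic. Grey hexagons show the density of 11230 genes with at least 200 reads (darker for more genes, log scale, values beyond 1.5 drawn at 1.5), and coloured points are the 8 splicing regulators. The cloud slopes upwards most for miR-124, and there PTBP1 lies within it, whereas for miR-1 PTBP1 lies at its lower edge.

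Other regulators of the same families were mostly low or absent. Of 17 relatives (RBFOX1, RBFOX3, SRRM3, NOVA2, the other CELF genes, MBNL3 and the ELAVL and KHDRBS genes), 6 had at least 200 reads, and CELF6, ELAVL2 and KHDRBS2 had 0 reads in every library. With miR-124, 0 of these 6 passed 1.3-fold either way, and the same count held for miR-122, where among all genes 12.0% were lower and 7.44% higher with miR-124, and 9.17% and 5.44% with miR-122. With 6 genes such a count is near these shares. With miR-1, 2 of the 6 were lower by more than 1.3-fold, against 14.4% of all genes, and 0 were higher, against 5.01%. NOVA2, the second NOVA gene, was at 0.696 (0.543–0.892) and MBNL3 at 0.711 (0.501–1.01). With 6 genes this count is too small to be read as a result. ELAVL1, which binds AU-rich elements in most cells, had 896 reads with the control RNA, 1364 with miR-1, 792 with miR-122 and 892 in the miR-124 library, a ratio of 1.02 (0.929–1.12) with miR-124.

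Of the proteins known to bind PTBP1, RAVER1 was at 1.24 (1.04–1.47) with miR-124, at 0.665 (0.540–0.818) with miR-122 and at 0.984 (0.835–1.16) with miR-1. With the joint trend subtracted, RAVER1 was at 1.05 for miR-124. RAVER2 was at 0.949 (0.792–1.14), 1.04 (0.870–1.25) and 1.06 (0.899–1.24). MATR3 is listed under a pair of identifiers with 61 and 117 reads in all, and its reads cannot be assigned between them.

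Neuronal mRNAs that PTBP1 is known to keep low were given as a gene level. All 5 examined (DLG4, GABBR1, VAMP2, SV2A and KIF5A) had at least 200 reads, and their median log2 ratio was 0.15 with miR-124, 0.07 with miR-122 and -0.14 with miR-1, against -0.05, -0.02 and -0.05 for all genes with at least 200 reads. With the joint trend subtracted the median was 0.11 with miR-124, 0.08 with miR-122 and -0.08 with miR-1. VAMP2, a synaptic vesicle SNARE, had 69 reads with the control RNA, 123 with miR-1, 91 with miR-122 and 107 in the miR-124 library. It was the lone gene of the 5 past 1.3-fold with miR-124, at 1.59 (1.16–2.18). Of all genes with at least 200 reads, 7.44% were higher by that much with miR-124 and 5.44% with miR-122. With 5 genes the count is too small to be read as a result. VAMP2 was at 1.48 (1.07–2.06) with miR-122 and 1.25 (0.923–1.70) with miR-1, so a higher value was not restricted to the miR-124 library. With the joint trend subtracted, the ratio of VAMP2 was 1.43 with miR-124 and 1.40 with miR-122. DLG4, the postsynaptic scaffold PSD-95, was at 1.18 (0.960–1.44) with miR-124 and 0.888 (0.729–1.08) with miR-1. SV2A, a synaptic vesicle protein, was at 0.759 (0.680–0.847) with miR-1, where PTBP1 was lowest. KIF5A, a neuronal kinesin, was at 0.715 (0.553–0.922) with miR-122.

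Of 7 genes with exons that PTB proteins are known to regulate (SRC, CLTB, PKM, TPM1, ACTN1, FLNA and RTN4), all had at least 200 reads. Their median log2 ratio was 0.16 with miR-124, -0.04 with miR-122 and 0.06 with miR-1. With the joint trend subtracted the miR-124 median was -0.03, on the other side of 0. PKM, whose alternative exons set the isoform of pyruvate kinase, was at 1.12 (1.09–1.16) with miR-124, 1.05 (1.03–1.09) with miR-1 and 0.766 (0.739–0.793) with miR-122. After that adjustment PKM was at 0.969 with miR-124. Gene-level values hold no measure of exon use, so whether any of these exons was spliced differently was not analysed here.

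The genes most like PTBP1 over the 3 log2 ratios, by Euclidean distance among 6577 genes with at least 1000 reads, were ZNF740 at 0.0449, RMI2 at 0.0772 and PNP at 0.0927. For PTBP2 they were PFDN4 at 0.0700, DPM1 at 0.0748 and SMYD5 at 0.0826. The 3 ratios share 1 control library.

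The cell line label was checked against markers. All 7 markers listed for the kidney line (PAX2, LHX1, GATA3, KRT8, KRT18, VIM and CDH2) had reads in every library, with summed levels of 452 to 511 exon RPKM. The sum was mostly of KRT8, KRT18 and VIM, at 203, 128 and 105 in the control library. PAX2 and LHX1 were at 0.275 and 1.97 there, so the sum is not a measure of kidney identity. Of 12 neuronal markers, 2 or 3 had 0 reads in a library, the defining STMN2 and NEUROD1 among them in all 4, and the summed level was 53.3 to 63.5, mostly of NEFL. With miR-124 the summed neuronal level was 53.3, against 55.0 with the control RNA. This sum follows NEFL, which was at 0.943 (0.868–1.02) with miR-124. The median log2 ratio of the 4 neuronal markers with at least 200 reads was 0.10 with miR-124, 0.39 with miR-122 and -0.05 with miR-1. With the joint trend subtracted it was 0.35, 0.49 and -0.04. With 4 genes these medians are too few to be read as a result. The 8 muscle markers summed to 7.34 to 10.2, the 8 liver markers to 0.231 to 1.41 and the 6 blood markers to 1.39 to 2.86. The mature miRNAs are not measured in mRNA libraries, so the delivery of each mimic was not checked here.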

How the data were processed

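RNA-seq libraries of 293T cells, 1 for each of 4 conditions, were analysed. Per the labels and the methods, the authors made mRNA libraries, aligned the reads to GRCh38 with HISAT2 2.0.0 (base calls with CASAVA 1.8) and deposited FPKM values, 1 per gene and library. How reads were counted, and on which annotation, is not given in the sources used here. Groups were taken from the labels. The genes and the gene lists were chosen with earlier results of these data known. A few genes first placed on these lists were dropped from them, counts and medians included, and are not reported here.

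FPKM times gene length takes 1 value most often in a library, the value of 1 read, which gave each divisor (5887055 to 9452232 reads). Lengths were annotated spans (GENCODE 44) where these gave whole reads in all 4 libraries within 0.001 reads, otherwise the nearest fitting length within 10%, otherwise the smallest, so that reads of such genes can be off by a whole factor. Of 12755 genes with at least 200 reads, 4691 fitted the annotated length. Recovered reads summed to 104.2 to 104.4% of the divisors. FPKM ratios carried no pseudocount and needed values above 0.004. Intervals are exact binomial on shares of reads, and exact Poisson for exon RPKM. Those of the PTBP2 to PTBP1 ratio relative to control are normal approximations on the log scale. All cover counting error only. No test was made, since each condition has 1 library.

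Genes named were the 10 regulators, genes of the relative, partner and PTBP target lists past 1.3-fold or used as examples, and the 3 nearest in ratio to PTBP1 and PTBP2. Markers were named as lists, and singly where they made up most of a sum or were low or absent. RAVER1, RAVER2, ELAVL1, DLG4 and PKM were chosen as examples after their values were seen. The adjusted ratio subtracts a cubic trend in 3′ UTR GC content, 3′ UTR length, gene span and reads. Alternatives were pseudocounts of 1 and 0.1, the other 2 mimics as reference, centring, the 1.5-fold threshold and that adjustment. On simulated libraries 4 of 4 divisors came back and exact reads came back for 99.8% of 12755 genes. There, 95.6% of intervals held the true ratio. Simulated libraries cannot show whether the lengths chosen for the deposited values are right, or how far cultures differ. These shares therefore check the arithmetic of the recovery and of the intervals only. On simulated log2 ratios 200 genes were lowered by 0.5. After the adjustment their mean less the mean of the other genes was -0.52. Tools were samtools 1.23.1, pysam 0.24.0, scipy 1.17.1, numpy 2.4.6, matplotlib 3.10.9 and pandas 2.3.3 under Python 3.11.15.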

Additional observations from a re-analysis of the deposited data

How the results depend on the processing

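With miR-124, the log2 ratio of PTBP1 moved from 0.076 to 0.33 when divided by the mean of both other mimics (the other reference). After the joint adjustment for composition, lengths and reads it was -0.16. That of PTBP3 moved to 0.081 and that of QKI from -0.22 to 0.060 after the adjustment. The PTBP2 to PTBP1 ratio moved to -0.79 with the other reference and 0.25 after the adjustment. The median of the 8 genes went to 0.0024 with the other reference and to 0.024 after the adjustment. The count of genes lower by more than 1.3-fold went from 1 to 0 with the other reference, with a pseudocount of 1, with a pseudocount of 0.1, after the adjustment and with the 1.5-fold threshold. With miR-1, PTBP1 was at -0.48 after centring and -0.72 after the adjustment, PTBP2 at 0.093 with a pseudocount of 1, and the PTBP2 to PTBP1 ratio at 1.35 after the adjustment. MBNL2 turned positive with the other reference, at 0.14 with miR-124 and 0.076 with miR-1. The alternatives for miR-1 and for MBNL1 and MBNL2 with miR-122 were chosen after seeing the data. The cause was not tested. No paired analysis was possible because there was 1 library per condition, and no replicate could be left out. Counts of 73 to 352 reads limit MBNL2 and PTBP2, and SRRM4 and NOVA1 lie below what this depth can compare.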
